A study of Mus musculus with 12 samples.

Results

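Of the genes that lipopolysaccharide raised in mouse macrophages, 6 are described here: Rnf19b, Oaf, Cav1, St3gal1, C9orf72 and Jarid2. They were chosen from the measured values themselves. The rule asked for a rise of at least 20 FPKM (fragments per kilobase of gene, scaled per library by the authors) and at least 4-fold in macrophages, and for an increment in osteoclasts over 40% of the macrophage increment, both taken between group means. The 6 genes, out of 54532 in the table, matched 1 Ensembl identifier each, and all 6 passed the filter on low values that left 11335 genes for testing. Of these 11335, 425 met both macrophage limits and 11 met all limits, so that the 6 genes are part of a somewhat larger set.

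RNA was sequenced from wild-type mouse bone-marrow-derived macrophages and from osteoclasts made from such macrophages, with 3 libraries in each of 4 groups. Marrow cells of femur and tibia were expanded with CMG, a source of the macrophage growth factor M-CSF. Untreated macrophages had M-CSF and no RANKL, LPS-treated macrophages had in addition 100 ng/mL lipopolysaccharide for 3 h on day 5, untreated osteoclasts had M-CSF and RANKL, and LPS-treated osteoclasts had all of these. RANKL was at 100 ng/mL in the sample source and is given as a range in the culture protocol. The labels name no mouse strain, sex or age, and do not say whether the 3 libraries of a group came from separate mice, so the p-values measure only the spread between these libraries, which may be technical.

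Lipopolysaccharide (LPS), a component of the outer membrane of Gram-negative bacteria, is sensed by Toll-like receptor 4 with its partners CD14 and MD-2, and the signal activates NF-kB, MAP kinases and interferon regulatory factors. Osteoclasts are the multinucleated bone-resorbing cells of the macrophage lineage, and RANKL, the cytokine that drives their formation, also signals through NF-kB and MAP kinases. The 6 genes do not form a pathway. Rnf19b encodes a ubiquitin ligase of the RING-between-RING type, Oaf a secreted protein of little known function and Cav1 the main coat protein of caveolae. St3gal1 encodes a sialyltransferase of O-linked glycans, C9orf72 a protein of a complex tied to autophagy and lysosomes, and Jarid2 an accessory subunit of Polycomb repressive complex 2 (PRC2).

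Libraries held between 15651770 and 20281456 assigned reads, as recovered from the steps of the FPKM values, and a library held between 144 and 18113 reads for each of the 6 genes. Mitochondrially encoded genes took 1.27% to 1.62% of the reads in macrophage libraries and 5.16% to 6.18% in osteoclast libraries, and the reason was not tested. All 8 osteoclast markers reached a group mean of 1 FPKM in both osteoclast groups, with summed levels of 28985 to 31979 FPKM there. The sums were 8.26 to 12.2 FPKM in untreated and 19.3 to 23.4 FPKM in LPS-treated macrophages. The osteoclast marker Acp5 averaged 0.950 FPKM in untreated and 14.6 FPKM in LPS-treated macrophages. Of 6 macrophage markers, all reached 1 FPKM in macrophages and 4 did in osteoclasts. Their summed level was 1560 to 1576 FPKM in untreated and 1736 to 1788 FPKM in LPS-treated macrophages, and 345 to 352 FPKM in untreated and 349 to 366 FPKM in LPS-treated osteoclasts, where most of it was Csf1r. Fcrls averaged 246 FPKM in untreated macrophages and 0.0576 FPKM in untreated osteoclasts.

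The starts of 5 of the 6 genes are covered by the RefSeq promoter table on GRCm38.p6, with 7 starts in all, and St3gal1 is not among them. The stretches below are shown as a description. The 6 genes moved together, but the rule that chose them favours this, and shared control was not tested. Each stretch lies within the 250 bases before a RefSeq start and outside every exon of GENCODE M21. Not shown are the downstream start of Cav1, whose window held none of the 7 motifs below, and C9orf72, with at most 16 bases in a row outside exons. The stretches are written 5′ to 3′ on the strand of the gene. Capitals mark matches on either strand to any of 7 motifs: the NF-kB consensus, the AP-1 site TGANTCA, the interferon-stimulated response element (GAAA, any 2 bases and GAAA again), the cAMP response element TGACGTCA, the GC box GGGCGG, the CCAAT box CCAAT and the TATA box TATAAA. The stretches are chr4:129057984-129058143 on the plus strand for Rnf19b, chr9:43239912-43240066 on the minus strand for Oaf, chr6:17306085-17306334 on the plus strand for Cav1, and chr13:44730524-44730773 and chr13:44731021-44731270 on the plus strand for the upstream and downstream starts of Jarid2.
Rnf19b: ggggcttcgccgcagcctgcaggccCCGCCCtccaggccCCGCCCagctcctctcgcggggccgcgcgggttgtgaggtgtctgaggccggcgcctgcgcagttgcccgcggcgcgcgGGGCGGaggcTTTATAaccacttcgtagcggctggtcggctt
Oaf: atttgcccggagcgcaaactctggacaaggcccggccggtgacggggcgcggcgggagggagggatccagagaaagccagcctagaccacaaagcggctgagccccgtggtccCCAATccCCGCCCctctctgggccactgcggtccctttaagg
Cav1: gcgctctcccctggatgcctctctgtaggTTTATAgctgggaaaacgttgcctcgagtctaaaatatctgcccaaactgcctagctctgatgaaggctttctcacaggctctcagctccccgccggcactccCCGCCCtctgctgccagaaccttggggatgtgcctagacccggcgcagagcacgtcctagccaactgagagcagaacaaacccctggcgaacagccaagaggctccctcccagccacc
Jarid2, upstream start: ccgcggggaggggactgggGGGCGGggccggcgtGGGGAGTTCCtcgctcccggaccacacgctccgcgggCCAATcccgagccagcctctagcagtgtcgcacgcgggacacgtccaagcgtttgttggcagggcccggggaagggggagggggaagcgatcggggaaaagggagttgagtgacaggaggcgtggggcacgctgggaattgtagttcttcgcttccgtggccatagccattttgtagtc
Jarid2, downstream start: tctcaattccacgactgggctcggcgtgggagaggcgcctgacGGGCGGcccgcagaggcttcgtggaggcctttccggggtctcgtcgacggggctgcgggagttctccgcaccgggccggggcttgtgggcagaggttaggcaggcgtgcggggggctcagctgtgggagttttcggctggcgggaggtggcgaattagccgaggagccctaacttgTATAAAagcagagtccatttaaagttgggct

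A single match to the NF-kB consensus was found in the 7 windows of 250 bases, GGGGAGTTCC before the upstream start of Jarid2, where 7.25% of all 32851 RefSeq windows of that length held at least 1. No window of the 5 genes held the AP-1 site, the interferon-stimulated response element or the cAMP response element, which 6.75%, 2.98% and 1.55% of all windows held. GC boxes were in 6 of the 7 windows, against 32.7% of all windows, and the C9orf72 window held 5, of which a pair shared 1 base. The windows are not all free of exons. GENCODE M21 exons covered 234 of the 250 bases for C9orf72, 95 for Oaf and 90 for Rnf19b. The windows of the 5 genes were 59.6% to 69.2% G and C, where the median of all windows was 52.4%. TATA box matches were in 3 windows, against 12.4% of all, and CCAAT boxes in 2, against 33.9%. A TATAAA on the plus strand stood 31 to 26 bases before the downstream start of Jarid2, and the match of Rnf19b, 32 to 27 bases before its start, was on the opposite strand. Matches of this kind describe the sequence only.

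Rnf19b (ENSMUSG00000028793, chromosome 4, 129058271 to 129085886 on GRCm38), the ubiquitin ligase also known as NKLAM from natural killer cells, was the most abundant of the 6. Untreated macrophages held 34.7, 36.7 and 37.1 FPKM and LPS-treated macrophages 251, 276 and 267 FPKM. Untreated osteoclasts held 189, 196 and 204 FPKM and LPS-treated osteoclasts 318, 340 and 313 FPKM. The 4 groups did not overlap, and untreated osteoclasts already stood at 74.3% of the LPS-treated macrophage mean. The increment was 229 FPKM in macrophages and 127 FPKM in osteoclasts, a share of 55.6%, the highest of the 6 genes. As a fold, the change with LPS was 7.33 in macrophages and 1.65 in osteoclasts.

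Oaf (ENSMUSG00000032014, chromosome 9, 43221235 to 43239911), the mouse counterpart of the fly gene out at first, had the highest osteoclast level relative to macrophages. Its values were 2.79, 2.98 and 3.35 FPKM in untreated macrophages and 26.4, 30.3 and 30.1 FPKM after LPS. Untreated osteoclasts held 33.8, 36.4 and 37.9 FPKM, and LPS-treated osteoclasts 51.5, 50.6 and 47.8 FPKM. Every untreated osteoclast library lay above every LPS-treated macrophage library, which was so for none of the other 5 genes. The osteoclast increment of 14.0 FPKM was 53.8% of the macrophage increment of 25.9 FPKM. It amounted to a 1.39-fold change, the lowest of the 6, beside 9.53-fold in macrophages.

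Cav1 (ENSMUSG00000007655, chromosome 6, 17306335 to 17341452), the scaffold of caveolae, the flask-shaped pits of the plasma membrane, was the lowest of the 6 in untreated macrophages. Those libraries held 1.88, 1.78 and 2.09 FPKM, and LPS-treated macrophages held 35.2, 40.5 and 37.4 FPKM. Untreated osteoclasts held 16.5, 12.7 and 14.7 FPKM, and LPS-treated osteoclasts 38.8, 25.2 and 36.6 FPKM. LPS-treated osteoclast replicate 2 lay apart from the other two, so that the SD of that group was 7.29 FPKM, and its range overlapped that of LPS-treated macrophages. The osteoclast increment of 18.9 FPKM was 52.9% of the macrophage increment of 35.8 FPKM, and 64.5% without that replicate. The folds were 19.7 in macrophages and 2.29 in osteoclasts, the highest of the 6 genes in both. Adgre1, the F4/80 marker of macrophages, was also lowest in replicate 2 among the LPS-treated osteoclasts, at 42.5 FPKM against 73.1 and 70.9 FPKM in replicates 1 and 3, and at 31.2 to 37.0 FPKM in untreated osteoclasts. Among the LPS-treated osteoclasts, replicate 2 was the lowest library for 5 of the 6 macrophage markers, 3 of 6 endothelial and 5 of 7 mesenchymal markers. In that group, 2 of the endothelial markers and 1 of the mesenchymal markers were at 0 in every library. Others, such as Cdh5 at a mean of 0.0837 FPKM, lay near 0, where the order of libraries rests on few reads. Of the 8 osteoclast markers in LPS-treated osteoclasts, replicate 2 was the lowest library for 2, Calcr and Atp6v0d2. It was the highest library for the other 6, among them Ctsk, the collagen-degrading protease, at 16279 FPKM against 15534 and 14763 FPKM. It was also the highest for Vwf, at 2.41 FPKM against 1.69 and 1.91 FPKM, and for Csf1r, at 304 FPKM against 286 and 289 FPKM. It was the lowest for Kdr, at 0.711 FPKM against 1.09 and 1.43 FPKM, and for Col1a1, at 0.0988 FPKM against 0.285 and 0.417 FPKM. Adgre1 rose with LPS in osteoclasts, by 0.85 in the fit of all genes (limma, adjusted p 0.00258), and the part of these markers' cells in the Cav1 values was not tested. Fewer cells of a type and less RNA per cell cannot be told apart in such bulk libraries.

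Cav1 is also a gene of endothelial and stromal cells, whose markers were measured beside it. The summed level of 6 endothelial markers was 2.31 to 3.46 FPKM in osteoclast libraries, most of it Vwf in untreated ones, 2.71 to 3.10 FPKM in untreated macrophages and 5.02 to 5.26 FPKM in LPS-treated macrophages. Of these markers, Cdh5 was at 1.03 ± 0.0689 FPKM in untreated and 2.37 ± 0.197 FPKM in LPS-treated macrophages (SD, n = 3), higher with LPS as Cav1 was, and averaged 0.0744 and 0.0837 FPKM in osteoclasts. The 7 mesenchymal markers summed to at most 1.01 FPKM in osteoclasts and to 26.0 to 36.6 FPKM in macrophages. Most of the sum in macrophages was Col1a1, at 19.9 FPKM in untreated and 21.5 FPKM in LPS-treated cells. Cav1 averaged 1.91 FPKM in untreated macrophages, and the part of such cells in that value was not tested. Lum was at 0 in every library. Kdr, the VEGF receptor, averaged 1.72 and 2.45 FPKM in macrophages without and with LPS. It was at 0.222 ± 0.0647 FPKM (SD, n = 3) in osteoclasts without LPS and 1.08 ± 0.358 FPKM with it.

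St3gal1 (ENSMUSG00000013846, chromosome 15, 67102875 to 67176830) caps the core galactose of mucin-type O-glycans with sialic acid. It was at 13.3, 14.1 and 13.0 FPKM in untreated macrophages and 76.8, 81.1 and 77.0 FPKM after LPS. Untreated osteoclasts held 40.7, 45.7 and 46.3 FPKM and LPS-treated osteoclasts 68.3, 75.2 and 73.3 FPKM. The order of the groups was the same as for Cav1 and Jarid2, with LPS-treated macrophages on top, and no groups overlapped. The osteoclast increment of 28.0 FPKM was 43.2% of the 64.8 FPKM in macrophages. The folds were 5.81 in macrophages and 1.63 in osteoclasts.

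C9orf72 (ENSMUSG00000028300, chromosome 4, 35191285 to 35226175) is the mouse counterpart of the human gene whose repeat expansion causes amyotrophic lateral sclerosis and frontotemporal dementia, and mice that lack it develop myeloid inflammation. Untreated macrophages held 6.29, 7.06 and 6.24 FPKM and LPS-treated macrophages 38.7, 43.6 and 37.2 FPKM. Untreated osteoclasts held 34.0 to 36.4 FPKM and LPS-treated osteoclasts 50.1, 50.8 and 46.6 FPKM. Untreated osteoclasts stood at 87.9% of the LPS-treated macrophage mean, and the nearest libraries of these groups were only 36.4 and 37.2 FPKM. The osteoclast increment was 14.1 FPKM, 42.5% of the 33.3 FPKM in macrophages. An antisense gene, Gm12367, shares 247 exon bases with C9orf72 and was at 0 to 0.0514 FPKM in the 12 libraries.

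Jarid2 (ENSMUSG00000038518, chromosome 13, 44729474 to 44921643) carries the Jumonji fold of histone demethylases without their activity and helps bring PRC2, which methylates histone H3 at lysine 27, to its targets. It was at 4.24, 4.08 and 4.15 FPKM in untreated macrophages and 29.5, 30.9 and 30.7 FPKM after LPS. Untreated osteoclasts held 15.0, 15.2 and 15.7 FPKM and LPS-treated osteoclasts 24.0, 27.9 and 26.7 FPKM. These 4 groups were also apart from each other, with the smallest spread of the 6 genes in untreated cells. The osteoclast increment of 10.9 FPKM was 41.6% of the 26.2 FPKM in macrophages, the lowest share of the 6. The folds were 7.31 in macrophages and 1.71 in osteoclasts.

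**Figure D1:**
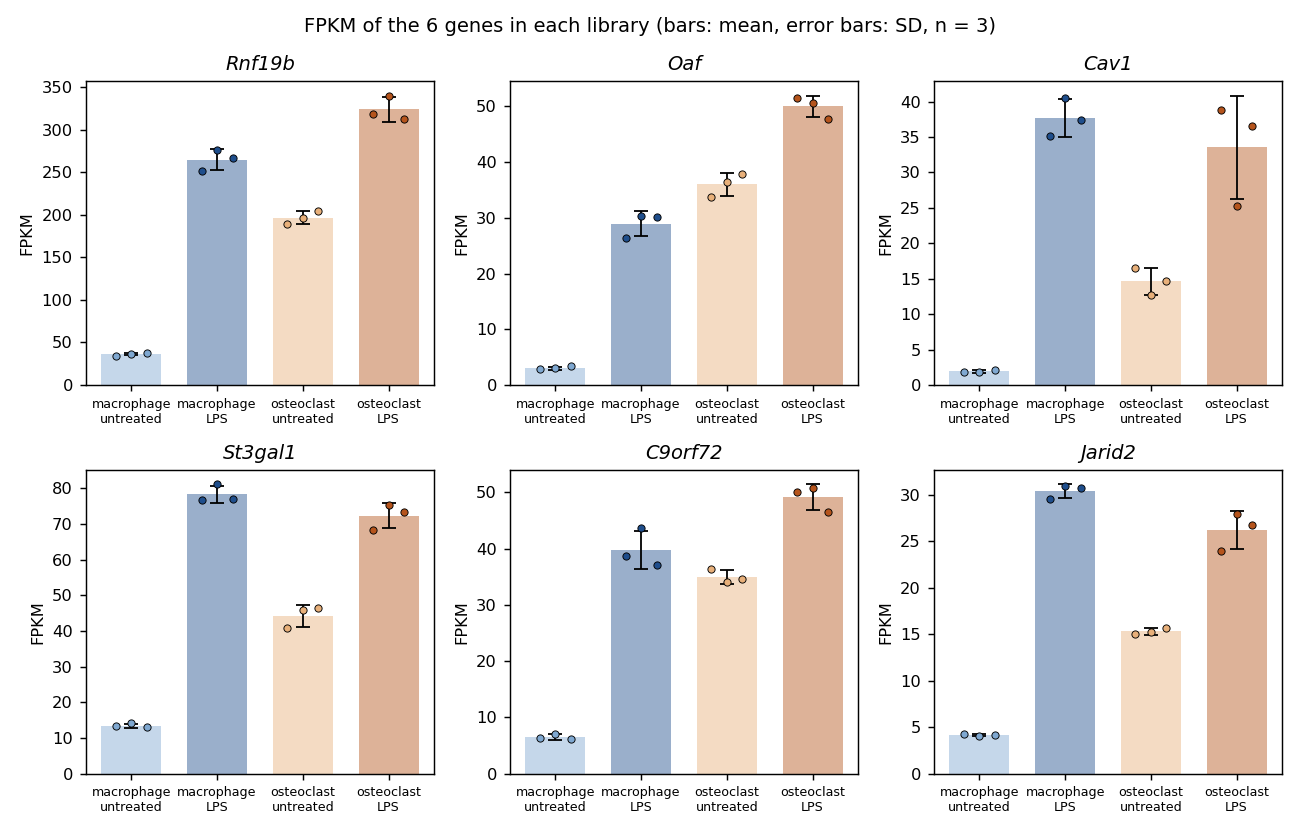
FPKM of the 6 genes in the 12 libraries, with 1 panel per gene, its own vertical axis from 0, bars for group means, error bars for the SD (n = 3) and points for libraries. Untreated macrophages are the lowest group in every panel, and untreated osteoclasts lie above LPS-treated macrophages for Oaf alone.

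Without LPS, the group means of all 6 genes were 3.29- to 11.9-fold higher in osteoclasts than in macrophages. The rule used the same untreated values. Its 4-fold limit favours genes low in untreated macrophages, and a large osteoclast increment at a small fold goes with a high level in untreated osteoclasts. The differences of the 6 genes are therefore given as a description, with no test. Limma called 38.8% of the 11335 genes tested higher in this contrast, and 13.4% higher by at least 1 on the log2 scale. Differences here and below are on the log2(FPKM + 1) scale unless a fold is named. The difference was 3.20 (SE 0.07) for Oaf, an 11.9-fold ratio of means. It was 2.42 (SE 0.14) for Cav1 and 2.41 (SE 0.05) for Rnf19b, 7.65-fold and 5.44-fold as ratios. For C9orf72 it was 2.26 (SE 0.06), for Jarid2 1.66 (SE 0.05) and for St3gal1 1.64 (SE 0.06). All 3 osteoclast libraries lay above all 3 macrophage libraries for each of the 6 genes, which held for 40.6% of genes tested.

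Among all genes that met the macrophage limits, a lower level in untreated osteoclasts was more common than a higher one. Of the 425, the 6 genes included, 106 (24.9%) were called higher in untreated osteoclasts and 243 (57.2%) lower, and the median difference was -0.43. Among the 425, 52 (12.2%) were called higher by at least 1. The higher untreated level was not particular to the 6 genes. The 5 others that met all limits also had higher means in untreated osteoclasts, at ratios of 2.76 to 49.7. With LPS, the osteoclast mean exceeded the macrophage mean for 9 of the 425 genes, 3 of them Rnf19b (1.22-fold), Oaf (1.73-fold) and C9orf72 (1.23-fold). Cav1, St3gal1 and Jarid2 stood at 0.890, 0.923 and 0.862 of the LPS-treated macrophage mean. Since the rule fixed the osteoclast increment, these ratios are given as a description.

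The share of the increment that the rule used ranged from 41.6% to 55.6% among the 6 genes, where the median of the 425 was 5.77% and the quartiles were 3.39% and 9.44%. Just inside the limit were Traf1, an adapter of TNF receptors and no member, at 41.0%, and Jarid2. Just outside were Bcl2a1a, a survival gene with near-identical copies that leave its value uncertain, at 36.6%, and the autophagy receptor gene Sqstm1 at 35.5%. Besides Traf1, the 4 other genes that met all limits without being members were the chemokine genes Ccl22 (99.3%) and Ccl9 (43.3%), the complement gene C3 (47.5%) and the membrane protease gene Mmp14 (44.7%), named after their values were seen.

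**Figure D2:**
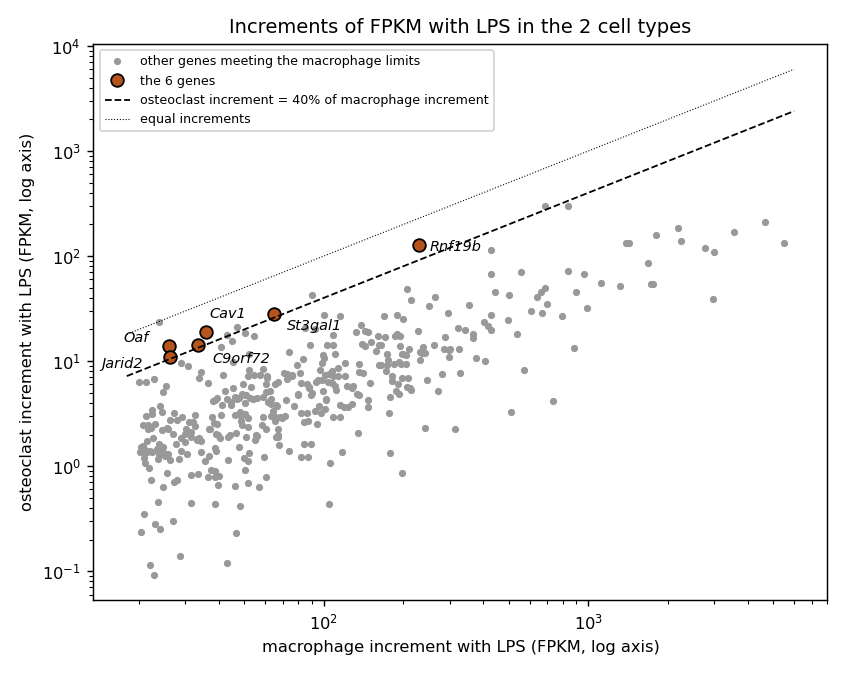
Increment of FPKM with LPS in osteoclasts against that in macrophages for genes meeting the macrophage limits, on log axes, with the 6 genes in orange, a dashed line at a share of 40% and a dotted line at equal increments. The 6 genes lie just above the dashed line, at shares of 41.6% to 55.6%, while most genes lie far below it, and 10 of the 425 with an osteoclast increment of at most 0.05 FPKM are not drawn.

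On a log scale the response of the 6 genes was not better kept in osteoclasts than that of other induced genes, so that "well preserved" describes them only on the linear FPKM scale. The rise on the log2(FPKM + 1) scale was 2.44 to 3.73 in macrophages and 0.46 to 1.13 in osteoclasts. The median over the 425 genes was 3.21 and 0.84. The osteoclast rise as a share of the macrophage rise was 16.0% for Oaf, 19.6% for C9orf72, 25.2% for Rnf19b, 28.3% for St3gal1, 28.3% for Jarid2 and 30.2% for Cav1. The median of the 425 genes on this scale was 27.2%, 184 genes lay above Cav1, and 308 lay above Oaf. By contrast with the FPKM scale, 3 of the 6 genes were below the median. These values come from the contrasts that chose the genes and carry no test. Over all genes tested, the libraries with LPS lay above those without it for 38.8% of genes in macrophages and 19.0% in osteoclasts, and all 6 genes were among them in both.

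**Figure D3:**
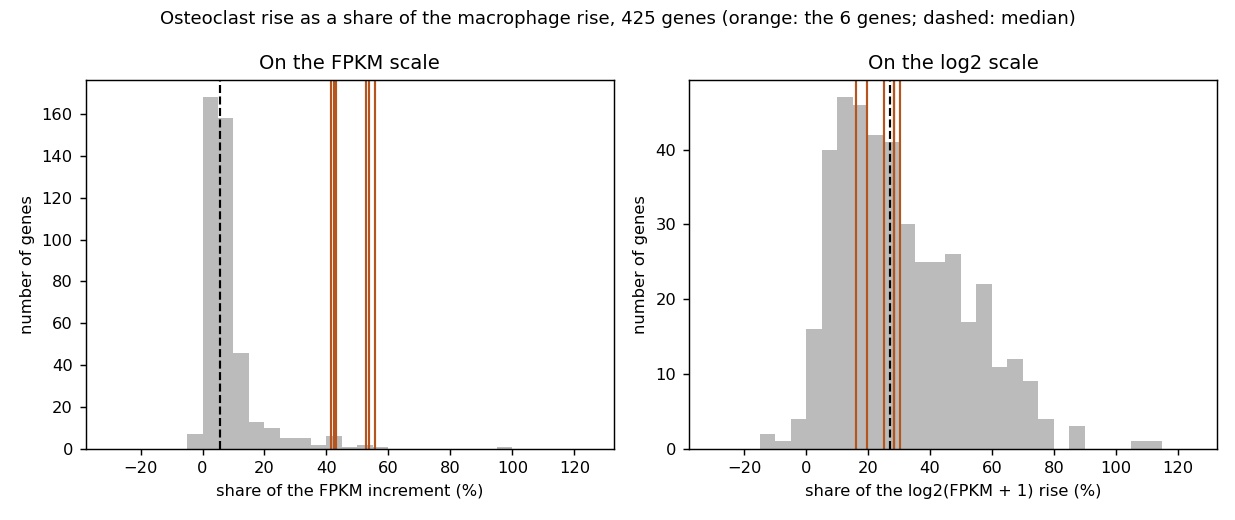
Number of genes by the osteoclast rise as a share (%) of the macrophage rise, for the 425 genes that met the macrophage limits, from FPKM means on the left and from log2(FPKM + 1) on the right. Orange lines, the 6 genes, stand right of nearly all genes on the left and around the dashed median of 27.2% on the right.

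The macrophage fold depended on the scaling. The deposited values are relative to the typical gene, and rescaling each library to a common sum (TPM) moved the median LPS difference of all genes tested to -0.55 in macrophages and -0.06 in osteoclasts. After that, the share of the increment was 46.6% to 62.9%, over the limit for all 6 genes. The macrophage folds of St3gal1 and C9orf72 were then 3.71 and 3.90, under the limit of 4, and those of the other 4 genes were 4.67 to 12.6. Leaving out LPS-treated osteoclast replicate 2 put the share of C9orf72 at 39.98% and that of Jarid2 at 38.3%, both under the limit.

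The profiles of the 6 genes over the 12 libraries were alike, with Pearson correlations of log2(FPKM + 1) of 0.914 to 0.998 over 15 pairs. The rule, which used the same libraries, favours such likeness. St3gal1 and Jarid2 were the closest pair and Oaf and Jarid2 the least close. The order of the groups differed among them. Rnf19b and C9orf72 had untreated osteoclasts below and LPS-treated osteoclasts above LPS-treated macrophages, and Cav1, St3gal1 and Jarid2 had LPS-treated macrophages as the highest group.

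Outside the 6 genes, the profile most like that of St3gal1 and of Jarid2 was Traf1 (r = 0.997 and 0.998), followed by the unconventional myosin gene Myo10 (0.996 for both). Traf1 was at 0.269 FPKM in untreated macrophages, 43.3 with LPS, 13.1 in untreated osteoclasts and 30.8 with LPS. Slc11a2, the iron transporter DMT1, was second for both Rnf19b (0.992) and C9orf72 (0.994), with group means of 8.87, 49.6, 48.1 and 61.7 FPKM in the same order. First for Rnf19b was M6pr (0.992), a mannose phosphate receptor, and first for C9orf72 was Stxbp3 (0.996), a vesicle fusion gene. The profiles nearest to Oaf were Ppp2ca, a phosphatase catalytic subunit (0.997), and Spi1, which encodes the myeloid transcription factor PU.1 (0.996). Nearest to Cav1 were Ccl9 (0.994) and Hnrnpc, an RNA-binding protein gene (0.993). All 12 libraries and their 4 group levels are shared by these points, so high values are common.

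The families and complexes of 5 of the genes were examined in lists of other members, which were tested over all 11335 genes. In macrophages, limma called 36.8% of all genes higher with LPS and 33.1% lower, and in osteoclasts 11.1% and 6.59%. Some list genes share exon sequence with another gene, so their values are uncertain: on the same strand Rnf31 with Irf9 and Rnf19a with a microRNA gene and Wdr41 with a predicted gene, and on the opposite strand Smcr8, Wdr41, Ezh2, Eed, Suz12, Kdm6b, Cavin3, St3gal4 and St6gal1. The same holds on the opposite strand for Rnf216, St8sia6, Slc35a1, Rb1cc1, Rbbp4, Rbbp7, Mtf2 and Phf1, which enter the counts only.

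Of 13 other RING-between-RING ligase genes, 10 were tested. In macrophages 7 were called higher and 2 lower with LPS, with a median difference of 0.36 against 0.02 over all genes; after rescaling to TPM the counts were 3 and 6. In osteoclasts limma called 1 higher and 0 lower, with a median of 0.01 against 0.01 over all genes. At an unadjusted p under 0.05, 2 were higher and 1 lower, and limma-voom on recovered reads called 1 higher and 1 lower. That 1 was Rnf31, which encodes HOIP, the ligase of linear ubiquitin chains on NF-kB signalling proteins. It rose from 4.56 ± 0.233 to 34.8 ± 2.67 FPKM in macrophages, by 2.68 (SE 0.08, adjusted p 3.27e-11), and from 3.40 ± 0.414 to 5.66 ± 0.518 FPKM in osteoclasts, by 0.60 (SE 0.08, adjusted p 2.78e-04) (SD, n = 3). Rnf31 also met the macrophage limits of the rule, with a share of 7.50%. Unlike Rnf19b, Rnf31 was lower in untreated osteoclasts than in untreated macrophages, by -0.34 (SE 0.08, adjusted p 0.00217). Rnf19a, the closest relative of Rnf19b, rose by 0.68 (SE 0.05, adjusted p 2.66e-07) in macrophages. In TPM that difference was 0.10 and missed the call. Rnf14 was higher in untreated osteoclasts by 1.40 (SE 0.05, adjusted p 1.07e-10) and rose with LPS in macrophages by 1.14 (SE 0.05, adjusted p 9.91e-10), while Rnf144b fell there, with a difference of -0.96 (SE 0.09, adjusted p 8.71e-07).

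Of 9 other caveola coat genes, 5 were tested. In macrophages 2 were called higher and 1 lower with LPS, and 0 and 3 after rescaling to TPM. In osteoclasts limma called 0, where 1 gene, Cavin1, had an unadjusted p under 0.05. Limma-voom on recovered reads also called 0, and 1 was called higher with a pseudocount of 0.1 or after rescaling to TPM. Cav2, the neighbour of Cav1 on chromosome 6 and its partner in caveolae, was at 31.1 ± 0.644 FPKM in untreated and 35.4 ± 0.887 FPKM in LPS-treated macrophages, and at 63.7 ± 3.00 and 65.2 ± 5.14 FPKM in osteoclasts (SD, n = 3). Its difference with LPS in macrophages, 0.18 (SE 0.05, adjusted p 0.00978), turned to -0.45 in TPM and to -0.35 when the libraries were quantile normalized. Like Cav1, Cav2 was higher in untreated osteoclasts, by 1.01 (SE 0.05, adjusted p 3.98e-09). Cavin3 was also higher there, by 2.13 (SE 0.13, adjusted p 1.48e-08), but Cavin1, the coat protein needed to form caveolae, was lower, at 0.364 ± 0.0913 against 3.31 ± 0.268 FPKM (SD, n = 3), a difference of -1.66 (SE 0.08, adjusted p 2.38e-09). Pacsin2 was lower as well, by -2.10 (SE 0.05, adjusted p 1.64e-12).

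Of 26 other genes of sialylation and the O-glycan core, 15 were tested. With LPS, 4 were called higher and 9 lower in macrophages, with a median of -0.23, and 1 higher and 2 lower in osteoclasts, with a median of -0.01; rescaling to TPM gave 2 and 11, and 1 and 4. The gene called higher in osteoclasts was St3gal3, a sialyltransferase of the same family as St3gal1. It rose from 5.30 ± 0.115 to 13.6 ± 1.29 FPKM in macrophages, by 1.21 (SE 0.06, adjusted p 4.57e-09), and from 13.3 ± 0.481 to 16.7 ± 0.836 FPKM in osteoclasts, by 0.30 (SE 0.06, adjusted p 0.00540) (SD, n = 3). St3gal3 was also higher in untreated osteoclasts, by 1.18 (SE 0.06, adjusted p 3.64e-09), as was St3gal2, by 2.11 (SE 0.05, adjusted p 5.21e-12). St3gal4 and St3gal5, the ganglioside GM3 synthase, were lower there, by -1.76 (SE 0.11, adjusted p 1.70e-08) and -2.16 (SE 0.09, adjusted p 2.41e-10). Gcnt1 encodes the enzyme that branches the same core glycan that St3gal1 caps. It fell from 45.3 ± 0.345 to 8.91 ± 1.68 FPKM with LPS in macrophages (SD, n = 3), with a difference of -2.24 (SE 0.12, adjusted p 7.24e-09), and was at 2.62 ± 0.307 FPKM in untreated osteoclasts (SD, n = 3). Cmas, which makes the activated sialic acid donor, was higher in untreated osteoclasts by 1.58 (SE 0.06, adjusted p 1.60e-10). The lower calls in osteoclasts were St6gal1, at -0.29 (SE 0.08, adjusted p 0.0222), and C1galt1, at -0.28 (SE 0.08, adjusted p 0.0366), and each lost its call under several alternatives, among them without LPS-treated osteoclast replicate 3 (adjusted p 0.0623 and 0.0662).

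All 9 genes of the C9ORF72, folliculin and autophagy initiation list were tested. With LPS, 3 were called higher and 5 lower in macrophages, and 0 higher and 3 lower in osteoclasts, with medians of -0.22 and -0.14. Rescaling to TPM gave 1 and 7, and 0 and 3. At an unadjusted p under 0.05, limma had 0 higher and 4 lower in osteoclasts, and limma-voom called 0 and 3. Smcr8, the partner of C9orf72 in its complex, rose in macrophages from 11.7 ± 0.405 to 23.1 ± 0.261 FPKM (SD, n = 3), by 0.92 (SE 0.06, adjusted p 2.88e-08), and was at 11.3 ± 0.170 and 12.3 ± 1.22 FPKM in osteoclasts (SD, n = 3), a difference of 0.11 (SE 0.06, adjusted p 0.216) that was called without LPS-treated osteoclast replicate 1 (0.19, adjusted p 0.0129). Wdr41, the third subunit, was lower with LPS in macrophages by -0.22 (SE 0.05, adjusted p 0.00267). Neither Smcr8 nor Wdr41 was called between the untreated cell types, at -0.05 (SE 0.06, adjusted p 0.453) and -0.04 (SE 0.05, adjusted p 0.546), where C9orf72 was 5.37-fold higher in osteoclasts. In TPM both were called lower in osteoclasts, at -0.46 (adjusted p 1.12e-04) and -0.45 (adjusted p 5.27e-05). Flcn, Fnip1 and Fnip2, the folliculin complex, which is related to that of C9orf72 in structure, fell with LPS in both cell types. For Flcn the difference was -2.02 (SE 0.10, adjusted p 2.34e-09) in macrophages and -0.40 (SE 0.10, adjusted p 0.0148) in osteoclasts. For Fnip1 it was -0.96 (SE 0.07, adjusted p 5.45e-08) in the former and -0.31 (SE 0.07, adjusted p 0.00542) in the latter. For Fnip2 it was -1.45 (SE 0.08, adjusted p 5.98e-09) against -0.42 (SE 0.08, adjusted p 0.00246). Flcn lost its osteoclast call with a pseudocount of 0.1 (adjusted p 0.0626) and when either untreated osteoclast replicate 2 (adjusted p 0.0571) or LPS-treated osteoclast replicate 1 (adjusted p 0.0584) was left out.

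All 13 PRC2 and H3K27 demethylase genes were tested. With LPS, 6 were called higher and 4 lower in macrophages, and 1 higher and 1 lower in osteoclasts, with medians of 0.11 and 0.02; rescaling to TPM gave 3 and 8, and 1 and 1. The gene called higher in both cell types was Aebp2, which with Jarid2 marks the same form of PRC2. It rose from 9.30 ± 0.135 to 43.0 ± 1.63 FPKM in macrophages, by 2.09 (SE 0.04, adjusted p 8.64e-13), and from 13.3 ± 0.555 to 20.2 ± 0.386 FPKM in osteoclasts, by 0.57 (SE 0.04, adjusted p 1.39e-06) (SD, n = 3). Aebp2 thus also met the macrophage limits of the rule, with a share of 20.5%. Of the core subunits in macrophages, Suz12 differed by 0.45 (SE 0.08, adjusted p 3.56e-04), turning to -0.18 after rescaling to TPM and at 0.037 without a call in quantile-normalized values, Eed by -0.66 (SE 0.05, adjusted p 2.58e-07) and Ezh2, the methyltransferase, by -0.44 (SE 0.09, adjusted p 0.00100). In osteoclasts they were at -0.01 (adjusted p 0.927), 0.05 (adjusted p 0.606) and 0.02 (adjusted p 0.929). Kdm6b, a demethylase of the same lysine, rose from 1.62 ± 0.0308 to 7.51 ± 0.518 FPKM in macrophages (SD, n = 3), by 1.70 (SE 0.06, adjusted p 1.25e-10), and was at 0.12 (SE 0.06, adjusted p 0.213) in osteoclasts. Kdm6a was the gene called lower in osteoclasts, by -0.22 (SE 0.05, adjusted p 0.00991; 0.0666 with only the osteoclast libraries fitted), and it was lower in macrophages by -0.20 (SE 0.05, adjusted p 0.00323).

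In osteoclasts against macrophages without LPS, the numbers of list genes called higher and lower were 3 and 6 for the ligases, 3 and 2 for the caveola coat, 8 and 4 for sialylation, 5 and 1 for the C9ORF72 and folliculin list and 3 and 7 for PRC2, where limma called 38.8% of all genes higher and 39.0% lower. In TPM, with the median of all genes tested at -0.38, they were 1 and 7, 2 and 2, 8 and 7, 1 and 6, and 1 and 10. The interaction, the osteoclast LPS effect less the macrophage one, was called above and below 0 for 1 and 7 of the ligases, 1 and 0 of the caveola genes, 6 and 3 of the sialylation genes, 4 and 3 of the C9ORF72 and folliculin list and 2 and 6 of the PRC2 list. Limma called 26.6% of all genes above 0 and 30.0% below. In TPM, with the median of all genes at 0.51, the counts were 4 and 3, 4 and 0, 11 and 2, 7 and 1, and 6 and 4.

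**Figure D4:**
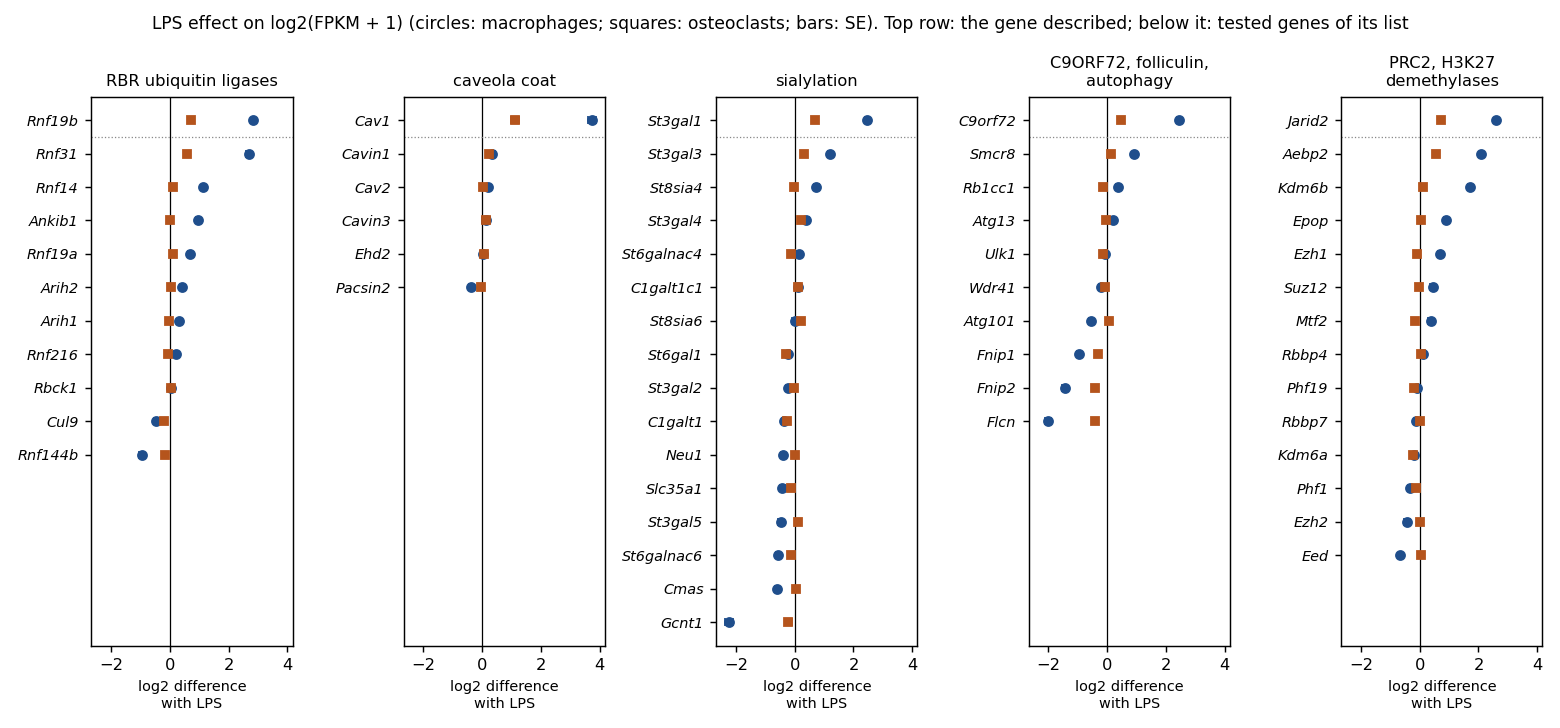
LPS effect (horizontal axis, difference on the log2(FPKM + 1) scale with its SE) of 5 of the 6 genes, each in the top row of a panel, and of the tested genes of their lists below, with circles for macrophages and squares for osteoclasts. The top gene of each panel was chosen for its macrophage rise, so its place above the others follows from the choice, and Rnf31, St3gal3 and Aebp2 are the listed genes called higher in osteoclasts.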

How the data were processed

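The deposited table holds FPKM for 54532 genes in 12 libraries, and per the submitters' processing notes fastp, STAR, featureCounts, DESeq2 and mm10 were used, with no versions. Of 25854 genes, 24997 (96.7%) gave whole reads (tolerance 0.02) at GENCODE M21 exon lengths. The departure of the denominators from median-of-ratios size factors was at most 0.00037%, so values are relative to the typical gene; this is inferred from the values. Depth was 15651770 to 20281456 assigned reads, and how reads were assigned to strands is not given in the sources used here. Limma 3.58.1 with a trend in R 4.3.3 was fitted to log2(FPKM + 1) in 4 group means over 12 libraries, for genes with at least 1 FPKM in 3 libraries, with Benjamini-Hochberg adjustment at 0.05 over all 11335, and was tested on simulated data. No p is given for the 6 genes, since the rule used the libraries of every contrast. A pseudocount understates changes of low genes. The interaction subtracts the macrophage LPS effect from the osteoclast one. The 6 genes and the lists were chosen with earlier results of these data known. Named were the 6 genes, list genes, the 2 closest profiles per gene and the 2 genes on each side of the limit, and, after their values were seen, the other genes that met the rule. The main fit did not pair libraries by replicate number, and whether the numbers mark pairs is not known. Alternatives were other pseudocounts, filters, scalings and designs, each library left out and, added after seeing the data, limma-voom on recovered reads. Promoter sequences are from RefSeq on GRCm38.p6.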

Additional observations from a re-analysis of the deposited data

Results flagged for a closer look

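Of the list genes given with values above, 19 had an adjusted p under 0.05 in limma's interaction test of the LPS responses. Cav2, Cavin1, Cavin3, St3gal4, St6gal1, C1galt1, Wdr41 and Kdm6a, also given with values, were not called. Over all genes tested, limma called 26.6% above 0 and 30.0% below. The genes given with values were a choice from the lists, so the 19 cannot be set against these percentages. The difference, osteoclast effect minus macrophage effect on the log2(FPKM + 1) scale, was below 0 for 8 of the 19 genes. These were the ubiquitin ligase genes Rnf31 (-2.08), Rnf14 (-1.03) and Rnf19a (-0.56), the sialyltransferase gene St3gal3 (-0.90), the C9orf72 partner Smcr8 (-0.81) and the PRC2 and demethylase genes Kdm6b (-1.58), Aebp2 (-1.53) and Suz12 (-0.46). In TPM the value for Rnf19a was -0.033 (adjusted p 0.769) and that for Suz12 was 0.094 (adjusted p 0.475), neither of them called, and Suz12 also lost its call under quantile normalization (adjusted p 0.388).

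The difference was above 0 for 11 genes, each of which was lower with LPS in macrophages. It was 2.02 for Gcnt1 and 1.62 for Flcn, the highest of the 19, and 1.03 for Fnip2 and 0.65 for Fnip1, the folliculin partners. It was 0.79 for Rnf144b, 0.34 for Pacsin2, 0.22 for St3gal2, 0.59 for St3gal5 and 0.63 for Cmas. The call for Rnf144b was lost in limma-voom on recovered reads (adjusted p 0.0581). That for St3gal2 was lost under quantile normalization (adjusted p 0.130) and without untreated macrophage replicate 3, LPS-treated macrophage replicate 2, untreated osteoclast replicate 1 or LPS-treated osteoclast replicate 2 (adjusted p 0.0531 to 0.0652). For the PRC2 core genes the difference was 0.70 for Eed and 0.45 for Ezh2.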

How the results depend on the processing

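The differences of the 6 genes between untreated cell types lay between 1.28 and 3.57 over 126 alternatives, a range that the choice of genes by the same values favours. With a mean of at least 5 FPKM, fewer genes were tested (6430) and calls fell to 4851 for LPS in macrophages, 5427 between untreated cells and 4018 for the interaction. On the log2 scale the share kept was 25.2% for Rnf19b, 16.0% for Oaf, 30.2% for Cav1, 28.3% for St3gal1, 19.6% for C9orf72 and 28.3% for Jarid2. Leaving out 1 library gave shares of 52.0% to 58.0% for Rnf19b, 49.5% to 58.1% for Oaf, 45.5% to 64.5% for Cav1, 40.5% to 46.2% for St3gal1, 39.98% to 46.4% for C9orf72 and 38.3% to 45.8% for Jarid2, and 7500 to 8012, 1432 to 2031, 8495 to 8874 and 6049 to 6345 calls for LPS in macrophages, LPS in osteoclasts, untreated cells and the interaction. With the replicate block these were 7914, 1930, 8787 and 6422. In their departures from group means, same-numbered libraries of different groups correlated at -0.07 to 0.10 and differently numbered ones at -0.14 to 0.11. These ranges overlap and cannot decide whether the numbers pair libraries. Of 1622 alternatives for 79 list gene results, 1572 kept direction and side of the threshold, 33 lost the call, 3 gained one and 14 reversed. With LPS in macrophages, reversed values were Cav2 (-0.45 by TPM, -0.35 by quantile normalization) and, by TPM, Cavin1 (-0.20), St3gal4 (-0.19) and Suz12 (-0.18; interaction 0.094); a common sum shifts all genes. Uncalled osteoclast values near 0 also changed sign, Ezh2 (-0.035 by TPM) and Eed (-0.019 by TPM and by quantile normalization). With 1 library left out, Ezh2 ranged from -0.061 to 0.11 and Suz12 from -0.068 to 0.067 there, and Wdr41 from -0.087 to 0.0015 between untreated cells. TPM moved the share of calls that were higher from 52.6% to 18.5% in macrophages, 62.8% to 43.5% in osteoclasts, 49.9% to 29.9% between untreated cells and 47.0% to 82.0% for the interaction, and quantile normalization to 36.4%, 40.7%, 51.0% and 61.1%.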
